A study of Mus musculus with 6 samples.

Results

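MicroRNA genes were followed on whole-transcript arrays of differentiating mouse muscle cells after the long noncoding RNA H19 was targeted with an siRNA. The members are the rows of the value table whose annotation gives a single symbol that starts with Mirlet7 or with Mir and a number, and 1 symbol of that form is not reported here. They numbered 304 of 35556 rows and stood for 299 symbols, 297 rows for microRNA precursor genes and 7 rows for the 4 long noncoding host genes Mir17hg, Mir100hg, Mir99ahg and Mir670hg. The rule used names alone and no measured value. A further 61 rows carry a microRNA symbol together with another symbol, such as a host gene, and lie outside the rule.

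The cells were C2C12, an established mouse myoblast line that fuses into myotubes when serum is lowered. Both groups were grown with 10% fetal bovine serum, moved at about 90% density to 2% horse serum, transfected on day 1 of differentiation and collected 40 h later. They differed in the siRNA, which was a control siRNA on 3 arrays and an siRNA against mouse H19 on 3 arrays. Nothing in the labels ties the 3 transfections of a group to separate cultures. The p-values therefore rest on the spread between 3 samples a group, and that spread may be technical.

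All 7 muscle markers checked (Myod1, Myog, Des, Myh3, Ckm, Acta1 and Tnnt3) read between 9.32 and 12.52 on the log2 scale, well above the median over all rows of 6.74. The 9 markers of adipocytes, endothelium and neurons were all below it, as were 3 of 4 for macrophages and leukocytes, and 3 of 4 fibroblast markers were above it. No row is listed under H19 itself. The row listed under Mir675, which H19 hosts, and Supt6 read 12.21, 12.22 and 12.27 with control siRNA and 10.38, 10.28 and 10.37 with H19 siRNA. It fell by 1.89 (SE 0.04) in limma, adjusted p = 0.0004. The fibroblast marker Dcn, a matrix proteoglycan, fell by 0.50 (SE 0.03, limma adjusted p = 0.0294), and none of the other markers was called. In bulk RNA, fewer cells of a type and less RNA per cell cannot be told apart.

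MicroRNAs are made from a hairpin in a longer primary transcript. Drosha with Dgcr8 frees the hairpin in the nucleus, exportin 5 (Xpo5) carries it out, Dicer cuts it, and an Argonaute protein keeps one arm and finds messenger RNAs mainly through the seed, the short stretch near the 5′ end of that arm. In muscle, miR-1, miR-133 and miR-206 rise as myoblasts differentiate, and let-7 microRNAs, which accumulate in many cells as they mature, can bind H19. The labels name silica-column kits for the RNA, which in standard use retain RNAs as short as mature microRNAs poorly. Whether a row here reads the primary transcript, the hairpin or the mature RNA was not tested.

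The mature sequences of the let-7 rows are shown because the family shares a seed, set in capitals (bases 2 to 8 from the 5′ end). They come from RefSeq on build GRCm38.p6.
let-7a-5p: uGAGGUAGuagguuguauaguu
let-7c-5p: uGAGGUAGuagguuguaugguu
let-7d-5p: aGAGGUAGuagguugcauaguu
let-7e-5p: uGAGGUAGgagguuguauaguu
let-7f-5p: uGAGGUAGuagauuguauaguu
let-7g-5p: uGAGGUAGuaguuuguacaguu
let-7i-5p: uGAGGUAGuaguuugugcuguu
miR-98-5p: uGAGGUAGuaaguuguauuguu
Mature sequences were matched for 271 members, and among these the seed GAGGUAG was the most widely shared, in 9 genes. Mirlet7a-2 was not counted with them, because only its let-7a-2-3p was matched. The mature sequences matched held 388 different seeds, and 68 of them occurred in 2 or more member genes.

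The next set belongs to rows described below, none of them called in the fit over all rows, and the capitals again mark the seed. miR-206 is a muscle microRNA, miR-24 comes from the Mir23a, Mir27a and Mir24-2 cluster, and the miR-26 pair and the miR-15a and miR-16 pair each share a seed.
miR-206-3p: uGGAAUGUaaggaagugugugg
miR-24-3p: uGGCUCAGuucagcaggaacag
miR-26a-5p: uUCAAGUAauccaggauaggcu
miR-26b-5p: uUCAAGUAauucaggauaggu
miR-15a-5p: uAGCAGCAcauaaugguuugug
miR-16-5p: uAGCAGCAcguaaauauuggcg
miR-30e-5p: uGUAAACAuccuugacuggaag
miR-370-3p: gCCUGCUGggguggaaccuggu
miR-17-5p: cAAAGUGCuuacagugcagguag

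Hairpins follow for 5 members, with the mature arms in capitals. They show the range of base composition among rows described in the text. Mir190a at chr9:67236660-67236726 (minus strand) had the lowest share of G and C bases of all hairpins matched, 28.4%, and Mir210 at chr7:141221384-141221493 (minus strand) was among the highest with 69.1%. Mir206 at chr1:20679010-20679082 (plus strand) had 42.5%, Mirlet7d at chr13:48536012-48536114 (minus strand) 44.7% and Mir24-2 at chr8:84208815-84208921 (plus strand) 61.7%.
Mir190a hairpin: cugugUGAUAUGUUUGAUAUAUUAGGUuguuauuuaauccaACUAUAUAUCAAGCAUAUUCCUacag
Mir206 hairpin: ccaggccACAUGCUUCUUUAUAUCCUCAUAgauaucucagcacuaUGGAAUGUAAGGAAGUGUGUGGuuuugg
Mirlet7d hairpin: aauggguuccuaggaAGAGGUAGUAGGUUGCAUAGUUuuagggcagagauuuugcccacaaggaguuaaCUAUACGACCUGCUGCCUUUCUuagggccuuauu
Mir24-2 hairpin: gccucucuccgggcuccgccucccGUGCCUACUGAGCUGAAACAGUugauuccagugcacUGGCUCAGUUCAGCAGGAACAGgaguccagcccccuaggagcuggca
Mir210 hairpin: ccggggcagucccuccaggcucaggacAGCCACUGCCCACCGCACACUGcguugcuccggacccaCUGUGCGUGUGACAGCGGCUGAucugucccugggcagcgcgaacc

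Most microRNA rows read low on these arrays. A row was marked dim where its mean over the 6 arrays lay under 6.74, the array median, and 237 of the 304 rows were dim. The 67 rows that were not dim started with Mir143 at 6.745, and the dim ones ended with Mir668 at 6.717. Member means ran from 3.42 for Mir190a to 10.20 for Mir692-1. The mark separates rows by signal on the array and does not rank microRNAs by abundance, because probes of different rows differ in how strongly they bind.

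No microRNA row passed the test between the groups. Differences are H19 siRNA minus control siRNA on the log2 scale, and a call is a limma p, adjusted by Benjamini-Hochberg over all 35556 rows, under 0.05. Over all rows 11 were called, 0.0309% of them, and 0 of the 304 members were among them. The calls over all rows were 6 higher (0.0169%) and 5 lower (0.0141%). At an unadjusted p under 0.05 there were 16 members, 11 higher and 5 lower, beside 8.63% of all rows. A limma fit without the dim rows called 1 member, Mir24-2.

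The differences were small in every row. They ran from -0.30 for Mir297b to 0.32 for Mir17, which is at most 1.25-fold, with a median of 0.01 over the members and 0.01 over all rows. Of the members 168 (55.3%) were above 0, beside 57.1% of all rows. The 95% intervals of 303 of the 304 members stayed within 1.5-fold in both directions, and all 304 stayed within 2-fold. The exception at 1.5-fold was Mir17, with an interval from 0.02 to 0.63. The number of arrays limits this precision, and the median interval reached 0.17 to either side. The intervals describe the array values. Of the 304 members 237 were dim, with a median SE of 0.06 beside 0.09 for the members that were not dim. How far a change in RNA moves the value of a dim row was not tested.

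**Figure D1:**
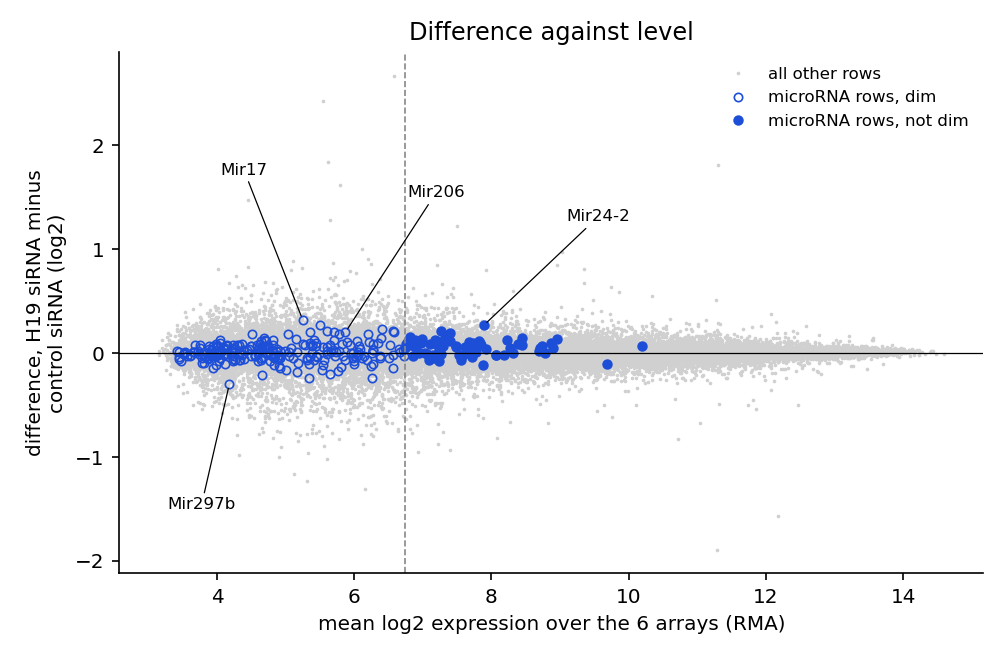
Each point is a row, with its mean log2 expression over the 6 arrays on the x axis and the H19 siRNA minus control siRNA difference (log2) on the y axis; open blue circles are dim microRNA rows, filled blue circles the others, and the dashed line is the array median of 6.74. The microRNA rows lie between -0.30 and 0.32, and 237 of 304 lie left of the line.

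In most microRNA rows the groups overlapped. The 3 arrays of one group lay beyond all 3 of the other in 29 of 304 members, 9.54%, beside 15.5% of all rows. H19 siRNA was the higher group in 22 of these members and the lower in 7, where the shares of all rows are 9.24% and 6.28%. Among rows that were not dim it was 4 of 67 members, 5.97%, beside 20.1% of such rows, and among dim rows 25 of 237, 10.5%, beside 10.9%. These shares were not tested against each other. An exact permutation test on 3 against 3 arrays cannot give a p under 0.1.

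Mir24-2 was the member with the smallest adjusted p. Its row read 7.77, 7.73 and 7.76 with control siRNA and 7.97, 8.05 and 8.05 with H19 siRNA. All 3 H19 siRNA arrays were above all 3 control arrays. The difference was 0.27 (SE 0.04, 95% interval 0.18 to 0.37) with an adjusted p of 0.184 in limma. With dim rows left out of the limma fit the adjusted p was 0.0459, where 74 of 17778 rows, 0.416%, were called. Over the other alternatives it lay between 0.0671 and 0.617, and the difference between 0.25 and 0.30.

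The neighbours of Mir24-2 in its cluster on chromosome 8 did not separate. Mir23a read 8.19, 8.22 and 8.17 against 8.22, 8.14 and 8.16, a difference of -0.02 (SE 0.04). Mir27a read 8.81, 8.78 and 8.88 against 9.03, 8.74 and 9.00, a difference of 0.10 (SE 0.09). H19 siRNA replicate 2 was the lowest of the 6 arrays in both rows, while it was joint highest for Mir24-2. The other gene of miR-24-3p, Mir24-1, shares a row with Aopep, looked up after the values of Mir24-2 were seen. It read 7.13, 7.31 and 7.17 against 7.03, 6.91 and 7.22, with overlapping groups and a difference of -0.14 (SE 0.09, limma adjusted p = 0.72). The 2 rows thus had opposite signs for genes that encode the same mature sequence, and the difference between them was not tested.

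Of the muscle microRNAs, Mir206 separated and the Mir1 and Mir133 rows overlapped. Over the muscle list 1 of 7 rows separated (14.3%), beside 15.5% of all rows and 10.9% of dim rows. Mir206, expressed in skeletal muscle, read 5.70, 5.79 and 5.84 with control siRNA and 5.97, 5.90 and 6.04 with H19 siRNA. Every H19 siRNA array was above every control array. The difference was 0.20 (SE 0.06, 95% interval 0.05 to 0.34), limma adjusted p = 0.459, and the row was dim. In the RefSeq table Mir206 lies inside Lincmd1, a muscle long noncoding RNA gene that also holds Mir133b. The row listed under Lincmd1 and Mir133b, outside the rule, was not dim. It read 8.79, 8.82 and 8.78 against 9.15, 9.21 and 9.36. Its groups did not overlap either, and the difference was 0.45 (SE 0.06, 95% interval 0.30 to 0.59), limma adjusted p = 0.163. Beside these rows, the muscle regulators Myod1 and Myog were at 0.23 and 0.22 (limma adjusted p of 0.228 and 0.201). In 5 of the 7 muscle markers every H19 siRNA array was above the controls, where the share of all rows was 9.24%. The groups overlapped in Myh3 at -0.03 and Ckm at 0.10, and 0 of the 7 were called. Of markers of other cells, Dcn was called lower at -0.50, and Pdgfra at -0.25 and Cd68 at -0.19 had every H19 siRNA array below, while the dim rows of Csf1r and Syt1 had every one above. Their part in the Mir206 and Lincmd1 values was not tested.

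The Mir133 pair, of the family that acts on myoblast proliferation and differentiation, had overlapping groups. Mir133a-1 read 4.49, 4.33 and 4.43 against 4.59, 4.48 and 4.71, where the second H19 siRNA array fell among the controls. The difference was 0.18 (SE 0.07), limma adjusted p = 0.594. Mir133a-2 read 4.49, 4.61 and 4.57 against 4.43, 4.54 and 4.64, a difference of -0.02 (SE 0.07) with overlapping groups.

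The Mir1 pair, whose product promotes differentiation, showed no separation. Mir1a-1 read 3.87, 3.87 and 3.79 against 3.90, 3.65 and 3.86, a difference of -0.04 (SE 0.07). Mir1a-2 read 3.63, 3.60 and 3.64 against 3.66, 3.51 and 3.62, a difference of -0.03 (SE 0.05). The second H19 siRNA array was the lowest of the 6 in both rows, and without it the differences were 0.0345 and 0.0174. The other 2 muscle rows were Mir208a at -0.04 and Mir499 at 0.07, microRNAs that lie in myosin heavy chain genes. All 7 rows of the muscle list were dim, 3 differences were above 0, 4 below, and the median was -0.02.

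**Figure D2:**
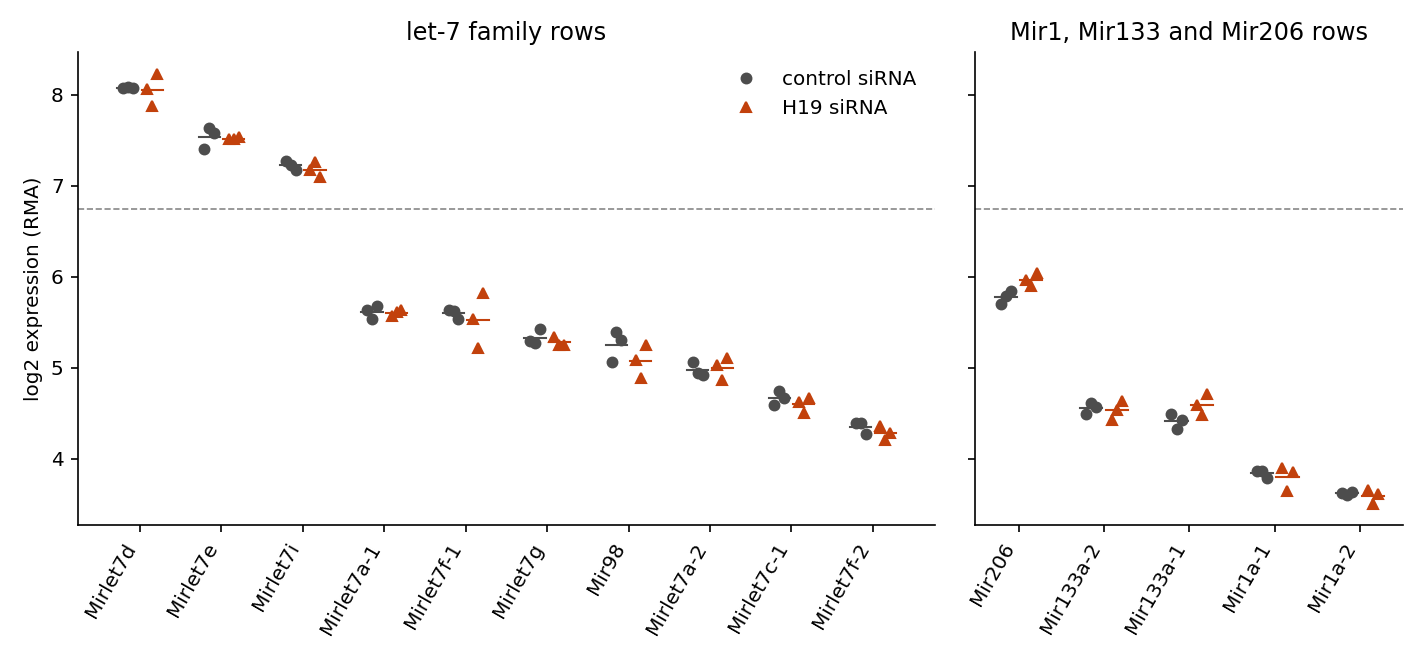
The log2 expression (RMA, y axis) of each let-7 family row (left) and each Mir1, Mir133 and Mir206 row (right) on all 6 arrays, with grey circles for control siRNA, orange triangles for H19 siRNA, short lines for group means over 3 arrays and a dashed line at 6.74. Of these rows, only Mir206 has groups that do not overlap, and only Mirlet7d, Mirlet7e and Mirlet7i lie above the dashed line.

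Most let-7 rows had a difference below 0, and none was called. Of 10 rows 9 were below 0, beside 57.1% of all rows above 0, the median was -0.05 and the range was -0.18 to 0.02. Limma adjusted p ran from 0.73 to 0.967, and in 0 rows were the groups apart, beside 15.5% of all rows. The sign count was 9 of 10 with each array centred on its median and 10 of 10 after a further quantile normalization. It was 7 of 10 without control siRNA replicate 3 and 7 of 10 without H19 siRNA replicate 2, and lay between 8 and 10 when any other array was left out.

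The 3 let-7 rows that were not dim were Mirlet7d, Mirlet7e and Mirlet7i. Mirlet7d read 8.07, 8.08 and 8.07 with control siRNA and 8.06, 7.87 and 8.23 with H19 siRNA. The control arrays lay close together and the H19 siRNA arrays lay on both sides of them, a difference of -0.02 (SE 0.09, 95% interval -0.24 to 0.21). Mirlet7e read 7.40, 7.63 and 7.58 against 7.51, 7.51 and 7.53. Here the spread was in the control arrays, and the difference was -0.02 (SE 0.07). Mirlet7i read 7.27, 7.23 and 7.17 against 7.17, 7.26 and 7.09, a difference of -0.05 (SE 0.06) with overlapping groups.

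Among the dim let-7 rows the widest spread was in Mirlet7f-1. It read 5.64, 5.62 and 5.54 against 5.54, 5.22 and 5.82, so that the H19 siRNA arrays gave both the lowest and the highest value. The difference was -0.07 (SE 0.15). Mirlet7f-2, which encodes the same mature let-7f-5p, read 4.39, 4.39 and 4.27 against 4.36, 4.21 and 4.28, also -0.07 (SE 0.06). Mir98, its neighbour on chromosome X, read 5.06, 5.39 and 5.31 against 5.09, 4.89 and 5.25. That was the most negative difference of the family, -0.18 (SE 0.12, 95% interval -0.47 to 0.12), and its groups overlapped.

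The 4 remaining let-7 rows were also dim. Mirlet7a-1 read 5.63, 5.54 and 5.68 against 5.57, 5.61 and 5.64, and Mirlet7a-2 read 5.07, 4.94 and 4.92 against 5.03, 4.87 and 5.11. Mirlet7c-1 read 4.59, 4.75 and 4.67 against 4.63, 4.51 and 4.67. Mirlet7g read 5.29, 5.27 and 5.43 against 5.34, 5.25 and 5.25. The differences were -0.01, 0.02, -0.07 and -0.05 in that order, and all groups overlapped. Mirlet7c-2 and Mirlet7b, which share rows with Lncppara and lie outside the rule, had differences of 0.05 and 0.02.

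H19 siRNA replicate 2 was the lowest H19 siRNA array in most let-7 rows, the exceptions being Mirlet7a-1, Mirlet7g and Mirlet7i. Against the control mean of each row, its median over the 10 let-7 rows was -0.125 and 9 rows were below 0. The other H19 siRNA arrays had medians of -0.035 and -0.001, with 7 and 5 rows below. Without replicate 2 the family median was -0.02 and 7 of 10 rows were below 0. Mirlet7d and Mirlet7f-1 turned to 0.0721 and 0.0800, and Mirlet7i went to -0.09.

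That array departed from the others along the base composition of the hairpins. Over the 259 members with a hairpin sequence, its deviation from the control mean had a Spearman rho of 0.50 with the share of G and C bases. For H19 siRNA replicates 1 and 3 rho was -0.06 and -0.04. In the 26 hairpins with 60% G and C or more, replicate 2 was above the control mean in 24 rows, with a median deviation of 0.21. In the 96 hairpins under 45% it was above in 28 rows, with a median of -0.05. The points share 1 library and the same 3 controls, so these values describe that array and carry no test.

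**Figure D3:**
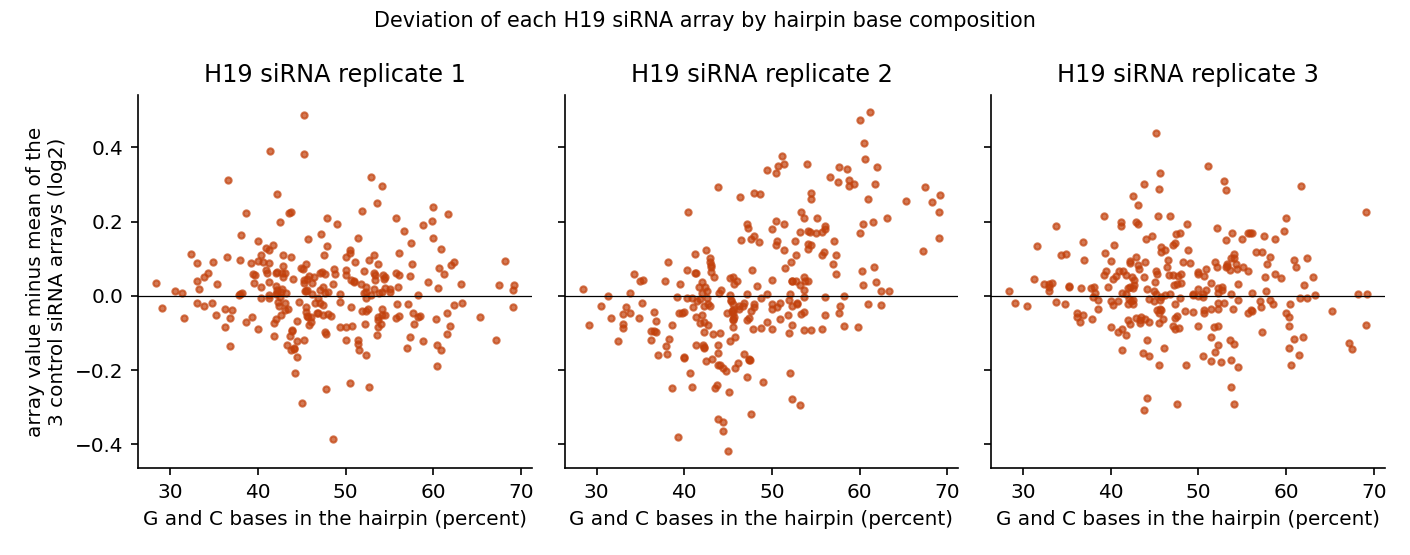
Each point is one of 259 microRNA rows, with the percent of G and C bases in its hairpin on the x axis and the value on one H19 siRNA array minus the mean of the 3 control siRNA arrays (log2) on the y axis, 1 panel for each array. Replicate 2 slopes upward (rho 0.50), and replicates 1 and 3 are level (rho -0.06 and -0.04).

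The lean of the brighter microRNA rows rested on the same array. Of the 67 rows that were not dim, 47 (70.1%) had a difference above 0 with a median of 0.07, beside 53% of all such rows and a median of 0.01. Without H19 siRNA replicate 2 it was 34 of 67 with a median of 0.00, beside 59.9% of all such rows. With each array centred on its median it was 43 of 67 beside 39.8%, and after a further quantile normalization 48 of 67 beside 50.3%. Without any one of the other arrays it was between 48 and 51, beside 47.6% to 54.0%. On replicate 2 the median deviation of these rows from the control mean was 0.176, and on replicates 1 and 3 it was 0.010 and 0.002. Of the 237 dim rows 121 were above 0, beside 61.1% of all dim rows, and the count was 96 after centring, beside 51.6%.

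The level of a row also followed the hairpin's bases. Across the 259 hairpins the share of G and C bases ran from 28.4% to 69.2%, and its correlation with the mean level was r = 0.73 and rho = 0.76. These points share probes of one design, the same 6 arrays and base composition itself, and they are not independent. Rows that were not dim had a median of 58.4% G and C (50 rows), and dim rows 45.6% (209 rows). The median level was 4.14 under 45% and 7.33 from 60% upward. Mir190a and Mir210, whose hairpins are given above, read 3.42 and 8.95. Correlation of base composition with the group difference was rho = 0.25 with all arrays and -0.09 without H19 siRNA replicate 2. Its part in the microRNA levels was not tested.

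**Figure D4:**
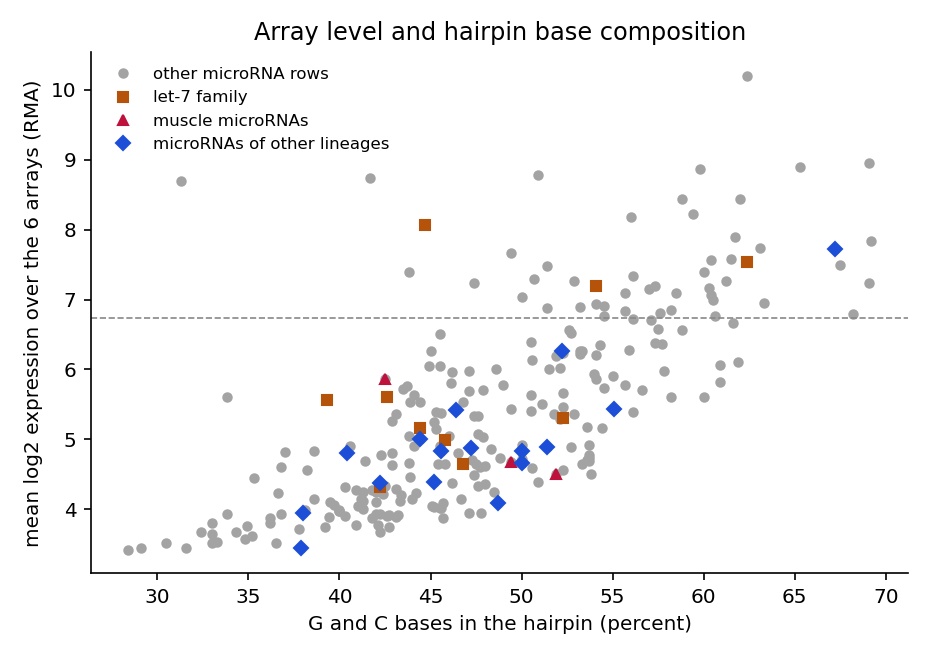
Each point is a microRNA row, with the percent of G and C bases in its hairpin on the x axis and its mean log2 expression over the 6 arrays (RMA) on the y axis; squares are let-7 rows, triangles muscle rows, diamonds rows of other lineages, and the dashed line is the array median of 6.74. Level rises with the share of G and C bases (r = 0.73 over 259 hairpins), and 21 of the 26 hairpins with 60% or more lie above the line.

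Apart from Mir24-2, the rows that were not dim and had the smallest p stayed far from the threshold. Upward they were Mir688, Mir423, Mir425, the brightest Mir99ahg row and Mir338, with differences of 0.09, 0.13, 0.10, 0.10 and 0.15. Mir688 read 7.12, 7.19 and 7.13 against 7.20, 7.26 and 7.26, so that its groups did not overlap, though the nearest arrays differed by little. Mir423 read 6.80, 6.72 and 6.92 against 6.97, 7.01 and 6.85, and Mir425 read 6.93, 6.90 and 6.85 against 6.90, 7.07 and 7.00. Mir338 read 7.33, 7.06 and 7.38 against 7.37, 7.44 and 7.43. In Mir338 the second control array was the lowest of the 6, and in Mir423 and Mir425 the groups overlapped by 1 array. Limma adjusted p for these 5 rows lay between 0.599 and 0.687.

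Downward the rows were Mir15a, Mir100hg, Mir677, Mir93 and Mir345, besides Mirlet7i. Mir15a, which can act on cell cycle genes, averaged 7.94 ± 0.10 against 7.83 ± 0.08 (SD, n = 3), a difference of -0.11 (SE 0.07). Mir100hg, the host transcript of Mir100, Mirlet7a-2 and Mir125b-1, read 9.70, 9.80 and 9.68 against 9.61, 9.55 and 9.74, a difference of -0.10 (SE 0.06). In both rows 1 array crossed into the other group. Mir677 read 7.28, 7.23 and 7.29 against 7.22, 7.10 and 7.24, and Mir93 read 7.03, 7.16 and 7.17 against 7.06, 7.03 and 7.07. Mir345 read 7.51, 7.71 and 7.56 against 7.40, 7.62 and 7.54. The last 3 differences were -0.08, -0.07 and -0.07, all with overlapping groups, and limma adjusted p for the 5 rows lay between 0.712 and 0.838.

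Mir99ahg, the host transcript of Mir99a and Mirlet7c-1, had 4 rows that did not share a sign. The brightest read 6.89, 6.99 and 6.87 against 6.93, 7.08 and 7.04. The 3 dim rows had differences of -0.05, -0.10 and -0.07 with SE from 0.09 to 0.13. The rows of 1 symbol therefore lay on both sides of 0, all 4 with overlapping groups, and the difference between them was not tested.

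**Figure D5:**
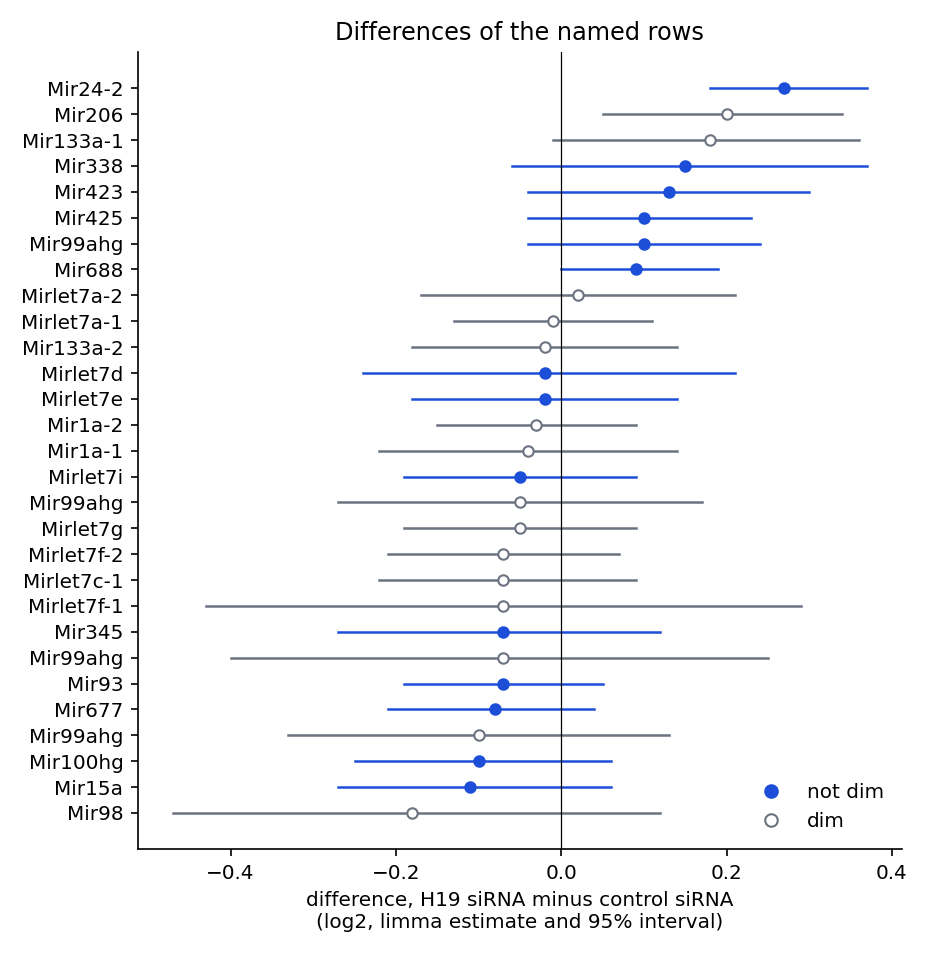
The H19 siRNA minus control siRNA difference (log2, x axis) of each of the 29 named rows with its limma 95% interval (line); filled blue circles are rows that were not dim and open grey circles dim rows. The intervals of Mir24-2 and Mir206 lie above 0, and those of the let-7 rows all cross 0.

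Other rows separated in pairs that share a seed, chosen after their values were seen. The groups were apart in 10.5% of dim members, beside 10.9% of all dim rows. Mir26a-1 and Mir26b, whose microRNAs favour differentiation, were both above the controls. Mir26a-1 read 5.37, 5.56 and 5.56 against 5.74, 5.66 and 5.71, and Mir26b read 6.46, 6.44 and 6.46 against 6.64, 6.75 and 6.60. Both differences were 0.21, with limma adjusted p of 0.476 and 0.347, and both rows were dim. Mir16-1 read 5.63, 5.74 and 5.86 against 5.61, 5.56 and 5.47, a difference of -0.20 (SE 0.07). Mir16-2 read 4.63, 4.65 and 4.64 against 4.50, 4.57 and 4.59, a difference of -0.08 (SE 0.04), also with every H19 siRNA array below. Limma adjusted p was 0.529 and 0.613. Without H19 siRNA replicate 2 the 4 differences were 0.23, 0.17, -0.21 and -0.09.

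The seed shared by miR-15a and miR-16 occurred in 6 member genes, 5 of them dim. Groups were apart in 1 gene above and 2 below, beside 15.5% of all rows and 10.9% of dim rows. Of the 6 genes 5 were below 0, where 57.1% of all rows were above 0, and 1, Mir195a, lay above the controls. Its row read 6.35, 6.31 and 6.24 against 6.36, 6.47 and 6.39, so that the lowest H19 siRNA array was just above the highest control array. Of the 5 genes whose matched mature sequences held the seed of miR-30e, 4 were above 0. In 1 of them, Mir30e, the groups were apart, beside 15.5% of all rows and 10.9% of dim rows. Mir30b and Mir30d, which are not among these 5, were at -0.05 and 0.04 with overlapping groups. Mir30e read 5.40, 5.35 and 5.35 against 5.46, 5.75 and 5.72, with the first H19 siRNA array nearest the controls, a difference of 0.27 (SE 0.08, limma adjusted p = 0.472). Mir30c-1, in the same cluster and with the same seed, was at -0.03 (SE 0.06).

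The miR-17 clusters, known for driving proliferation, had 14 rows, 3 of them not dim. Their median was 0.06, with 8 above 0 and 6 below. In 1 row (7.14%, beside 15.5% of all rows and 10.9% of dim rows), Mir92-2, the groups did not overlap (0.13). Mir17 read 4.99, 5.13 and 5.15 against 5.58, 5.14 and 5.53, so that the second H19 siRNA array lay among the controls and the other arrays above. The difference was 0.32 (SE 0.12, limma adjusted p = 0.563), and 0.46 without replicate 2 (SE 0.06, limma adjusted p = 0.26). Mir18 read 7.35, 7.48 and 7.16 against 7.56, 7.18 and 7.63, again with replicate 2 low, and Mir20a was at -0.05. The host transcript Mir17hg read 6.36, 6.46 and 6.03 against 6.46, 6.63 and 6.44, a difference of 0.23 (SE 0.12).

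The Dlk1-Dio3 cluster on chromosome 12, an imprinted region with many microRNAs, had 40 rows and 8 of them were not dim. In 7 rows (17.5%) the groups did not overlap, 5 above and 2 below. The shares were 15.5% of all rows, 20.1% of rows that were not dim and 10.9% of dim rows. As many rows were above 0 as below, 20 and 20. Mir370 read 5.67, 5.67 and 5.72 against 5.89, 5.86 and 5.85, the smallest p of the cluster, with a difference of 0.18 (SE 0.04, limma adjusted p = 0.282). Its neighbour Mir341 read 8.13, 8.19 and 8.19 against 8.21, 8.47 and 8.22, and its difference of 0.13 fell to 0.04 without replicate 2. Of the other imprinted genes, the Sfmbt2 cluster had 4 rows, all dim. The groups did not overlap in 1 of them (25%), beside 15.5% of all rows and 10.9% of dim rows. Mir466, Mir669b and Mir669c overlapped, at -0.08, 0.02 and -0.01. Mir297b in the Sfmbt2 gene read 4.27, 4.37 and 4.33 against 4.01, 3.91 and 4.16. All H19 siRNA arrays were lower, at -0.30 (SE 0.07, limma adjusted p = 0.385). Mir335, in the imprinted gene Mest, read 5.26, 5.15 and 5.24 against 5.30, 5.31 and 5.32, with a difference of 0.09, and Mest itself was at 0.19 (limma adjusted p = 0.228).

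The 22 rows of other microRNAs tied to myogenesis had a median of 0.00, with 11 above 0 and 11 below. The groups did not overlap in 3 of them (13.6%), beside 15.5% of all rows and 10.9% of dim rows. The 3 rows were Mir24-2, Mir26a-1 and Mir26b, described above. MicroRNAs that mark other lineages had 22 rows, 18 of them dim, among them the neuronal Mir124a genes, the liver microRNA Mir122 and the epithelial Mir200 genes. The 4 that were not dim were Mir143, Mir145a, Mir150 and Mir375, with differences of 0.05, 0.02, 0.12 and -0.04. The groups separated in 0 of the 22, beside 15.5% of all rows and 10.9% of dim rows, and the range was -0.16 to 0.13.

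Host genes were read beside the microRNAs inside them. In the RefSeq gene annotation, 81 member precursors lie inside 66 protein-coding genes of the same strand that have rows of their own, and 0 of the host rows were called. Where a host had several rows, the row with the highest mean was taken. Where a microRNA had several such hosts, the first listed was taken. The host was not dim in 58 pairs, and in 46 of these the microRNA row was dim. Across the 81 pairs, which share arrays and in part a host, r was 0.38 for levels and 0.18 for differences. Nfyc, the host of Mir30e, was at 0.04, Ctdspl and Ctdsp1, the hosts of Mir26a-1 and Mir26b, were at 0.01 and 0.04, and Huwe1, the host of Mirlet7f-2 and Mir98, was at -0.02. Pde2a was at 0.35 (limma adjusted p = 0.169) where Mir139 inside it was at 0.08. Clcn5 was at 0.20 (limma adjusted p = 0.274). The 5 microRNA rows of its cluster (Mir532, Mir188, Mir362, Mir501 and Mir500) ran from 0.00 after rounding to 0.15. All 5 were above 0, beside 57.1% of all rows, and a link to Clcn5 was not tested.

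The genes that make and use microRNAs differed little. All 25 genes of the list were measured, 23 were not dim, 0 were called, and 12 were above 0 and 13 below with a range from -0.11 to 0.10. At an unadjusted p under 0.05 there was 1, Dicer1, which cuts the hairpin. Dicer1 read 10.19, 10.22 and 10.16 against 10.09, 10.02 and 10.13, with all H19 siRNA arrays lower, a difference of -0.11 (SE 0.04, limma adjusted p = 0.568). In the nuclear step Drosha was at -0.01 and Dgcr8 at 0.00 (SE 0.05 and 0.06), and the exporter Xpo5 at 0.01 (SE 0.03). Of the Argonautes, Ago1, Ago2, Ago3 and Ago4 were at -0.03, 0.02, -0.09 and 0.02. The let-7 repressors Lin28a and Lin28b were the 2 dim genes, at 0.10 (SE 0.11) and -0.10 (SE 0.06). Groups did not overlap in 4 of 25 genes (16%), all lower with H19 siRNA, Dicer1, Ago3, Tut7 and Srrt, beside 15.5% of all rows.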

How the data were processed

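The authors deposited 1 log2 expression value for each probe set on each of 6 Affymetrix whole-transcript arrays. The submitters' processing notes name RMA and Affymetrix Expression Console. RMA corrects background, applies quantile normalization and summarises probes. Neither the software version nor the authors' probe annotation is given in the sources used here. Values ran from 2.97 to 14.6, array medians from 6.73 to 6.78, and r between arrays from 0.9958 to 0.9975. Scanner intensities were not used here, so dim rows could not be marked by detection. Gene symbols came from the platform annotation at GEO (21789 with 1 symbol, 1621 with several, 12146 unlisted), and all 304 member rows matched a RefSeq gene ID, 259 with a hairpin sequence.

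The limma package (3.58.1, under R 4.3.3) was fitted to all 35556 rows with lmFit and eBayes, two-sided and with no covariate, and the adjusted p threshold was 0.05. Leaving out rows or arrays, centring, quantile normalization, array weights, an intensity trend with robust variance and a replicate block were the alternatives. The rows named are the let-7, Mir1, Mir133 and Mir206 rows, any member called under a fit on all arrays, and the 6 rows that were not dim with the smallest p in each direction, together with every further row of a gene so named (Mir99ahg). Other rows were chosen after their values were seen. The members, lists and tests were chosen with earlier results of these data known. The fit, tested on simulated data of 35556 rows, recovered 4.4% of differences of 0.25, 64.0% of 0.5, 92.4% of 1 and 100.0% of 2 (log2). The changed rows were drawn from the whole table and outnumbered the 11 called in the data, which loosens the adjusted threshold. Noise was drawn with each row's variance after limma had pooled information over rows. The median SE was 0.07 over the members and 0.06 over all rows, so recovery among the members may be lower. In the data the row of Lincmd1 and Mir133b, at 0.45 (SE 0.06), was not called (limma adjusted p = 0.163). The simulated shares therefore do not give the recovery in these data. Several rows share an array, a host or a mature sequence, and members are not replicates.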

Additional observations from a re-analysis of the deposited data

How the results depend on the processing

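Same-numbered arrays had deviations from their group means correlated at 0.00, -0.07 and -0.11, so no shared shift by replicate number was seen. The labels do not say whether same-numbered samples were handled together. With the number as a replicate block 0 of all rows were called by limma, where 11 were called without it, and 2418 rows had an unadjusted p under 0.05. The count over all rows was 104 with a robust variance that follows intensity, 19 with array weights, 74 without rows under the array median, 33 without the lowest 30% of rows, 43 over annotated rows, 43 with 1 row per symbol, and 3 to 4 with 1 array left out. Of the member rows, 1 was called without the dim rows, Mir24-2 at 0.2727 (adjusted p = 0.0459). The members' median was -0.0100 after centring, 0.0005 after quantile normalization, 0.0666 without dim rows, and 0.0062 to 0.0191 with 1 array left out. Between 54 and 64 members did not overlap with 1 array left out, beside 23.4% to 28.1% of all rows. Mirlet7a-2 was at -0.0009 after quantile normalization. The cause of these moves was not tested, beyond the fewer rows or arrays that some fits hold.

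Of 304 values of the 29 named rows under the alternatives, 287 kept direction and side of the threshold, 16 changed sign and 1, Mir24-2, passed the threshold. The sign changes had leave-one-out ranges of -0.0713 to 0.0334 for Mir133a-2, -0.0908 to 0.0345 for Mir1a-1, -0.0563 to 0.0174 for Mir1a-2, -0.1087 to 0.0459 for Mir99ahg, -0.1468 to 0.0680 for Mir99ahg, -0.0495 to 0.0187 for Mirlet7a-1, -0.0295 to 0.0918 for Mirlet7a-2, -0.1090 to 0.0721 for Mirlet7d, -0.0867 to 0.0290 for Mirlet7e, -0.2177 to 0.0800 for Mirlet7f-1 and -0.0788 to 0.0008 for Mirlet7g. The counts of let-7 rows and of rows that were not dim by sign, across scalings and arrays left out, were added after seeing the data. With 3 arrays a group, differences near 0.25 were rarely recovered in simulated data.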

Other observations

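The noncoding RNA gene C430049B03Rik shares rows with microRNAs of the list tied to myogenesis, and these rows carry both names and so were not members. The row of Mir351 read 7.34, 7.31 and 7.34 with control siRNA and 7.54, 7.64 and 7.60 with H19 siRNA, all above, a difference of 0.26 (SE 0.04, limma adjusted p = 0.198). The row of Mir322 read 5.21, 5.36 and 5.34 against 5.16, 5.16 and 5.09, all below, at -0.16 (SE 0.05, limma adjusted p = 0.504). The row of Mir503 overlapped, at 0.02 (SE 0.07). The 3 rows differed in sign, and the difference between them was not tested. These rows were chosen after their values were seen.

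Of the 61 rows with a microRNA symbol and another symbol, 1 was called in limma, the Mir675 and Supt6 row, beside 0.0309% of all rows. Some of the 61, such as the rows of Mir669 and of Mir467 symbols, repeat the same values, so they hold fewer separate measurements. The row of Mir1291 and Snora34 read 9.27, 9.28 and 9.17 against 9.09, 8.84 and 9.07, all below, at -0.24 (SE 0.08, limma adjusted p = 0.504).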
